A study of Mus musculus with 12 samples.

Results

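Neurexins, neuroligins and leucine-rich repeat transmembrane (Lrrtm) proteins are adhesion molecules that meet across the synaptic cleft and help to organize synapses. Neurexins sit mainly on the presynaptic terminal, and their extracellular domains bind neuroligins and Lrrtm proteins on the postsynaptic side, which in turn hold scaffolds and receptors in place. In the hippocampus, Lrrtm proteins are known for keeping AMPA receptors at CA1 synapses during long-term potentiation (LTP), while neuroligins act at both excitatory and inhibitory contacts. The 9 genes described here were taken by name: the neurexin genes Nrxn2 and Nrxn3, the neuroligin genes Nlgn1, Nlgn2 and Nlgn3, and Lrrtm1, Lrrtm2, Lrrtm3 and Lrrtm4. They are 9 of 41091 gene IDs in the count tables, and all 9 passed the filter on low counts in each comparison.

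The libraries came from hippocampal slices, with the dentate gyrus cut away, and the mice were C57BL/6, wild type and 2 to 3 months old. Chemical LTP was induced by 5 min of 50 uM forskolin, an activator of adenylyl cyclase, and then forskolin with 30 mM KCl and 10 mM calcium up to 10 min, whereas controls had DMSO (0.2%) for an equal 10 min. The tissue was frozen 1 hr or 3 hr afterwards, which gave 4 groups of 3 libraries (1 hr control, 1 hr LTP, 3 hr control, 3 hr LTP). Each animal gave an LTP and a control library at its time point. The main fits took the libraries as independent, so their p-values measure the spread between libraries within groups. The pairing by animal entered only the fits with animal as a block. By the study's methods, the slices sequenced had first shown an LTP response of Arc by qPCR, and 1 hr control 2 was set aside as an outlier of clustering, so that the comparisons below use the other 11 libraries (37118382 to 50815001 counts each over all 12). Whole slices hold many cell types, and a change in the number of cells of a type cannot be told apart from a change in RNA per cell. The markers of neurons, of CA1 and CA3 pyramidal cells and of glia were present in every library, and those of dentate granule cells (Prox1, Dsp and C1ql2) were not absent, with a summed level of 111.8 to 213.1 CPM.

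Levels are given as CPM, which are counts scaled to the TMM-adjusted library total, and as RPKM, which are CPM per kilobase of merged exons and put different genes on a scale per length. The study describes its expression analysis as limited to coding sequence, and whether the deposited counts leave out untranslated exons is not given in the sources used here. If they do, RPKM would be too low for genes with long untranslated regions, which bears on each order of levels and each family share below. A gene was called at an adjusted p under 0.1 by edgeR and a fold change over 1.2. The 9 genes were deeply covered, from 527 counts for Lrrtm3 in its lowest library to 14689 for Nrxn3 in its highest.

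LTP was followed by few changes in these genes. At 1 hr, 0 of the 9 were called by edgeR, and 1 of them, Lrrtm2, had an unadjusted p under 0.05. With animal as a block, 0 were called and 4 higher and 1 lower had an unadjusted p under 0.05. That fit had no control of animal 2, so its LTP effect rests on the pairs of animals 1 and 3. At 3 hr, 2 of the 9 rose and 0 fell: Nrxn3, at 1.32 times the control level, and Lrrtm2, at 1.26 times. Over all genes, 0.789% were called at 1 hr (0.778% higher and 0.0113% lower) and 6.6% at 3 hr (5.07% higher and 1.53% lower). With GC and length offsets, which adjust each library for base composition and transcript length, the calls at 3 hr were 968 higher and 567 lower in place of 888 and 267. The 9 genes had a median log2 fold change of 0.0064 at 1 hr and 0.13 at 3 hr, and all genes tested had -0.001 and -0.0025. The larger differences lay between the control slices of the 2 time points. There, 6 of the 9 genes and 32.8% of all genes were called, and 1 of the 9 with the GC and length offsets. Over all genes, 4653 to 6347 were called under the 8 alternatives that left no further library out, the offsets included, in place of 6102. Without the offsets, Nrxn2 and Nlgn2 were higher at 3 hr and Nrxn3, Nlgn1, Lrrtm2 and Lrrtm4 lower.

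**Figure D1:**
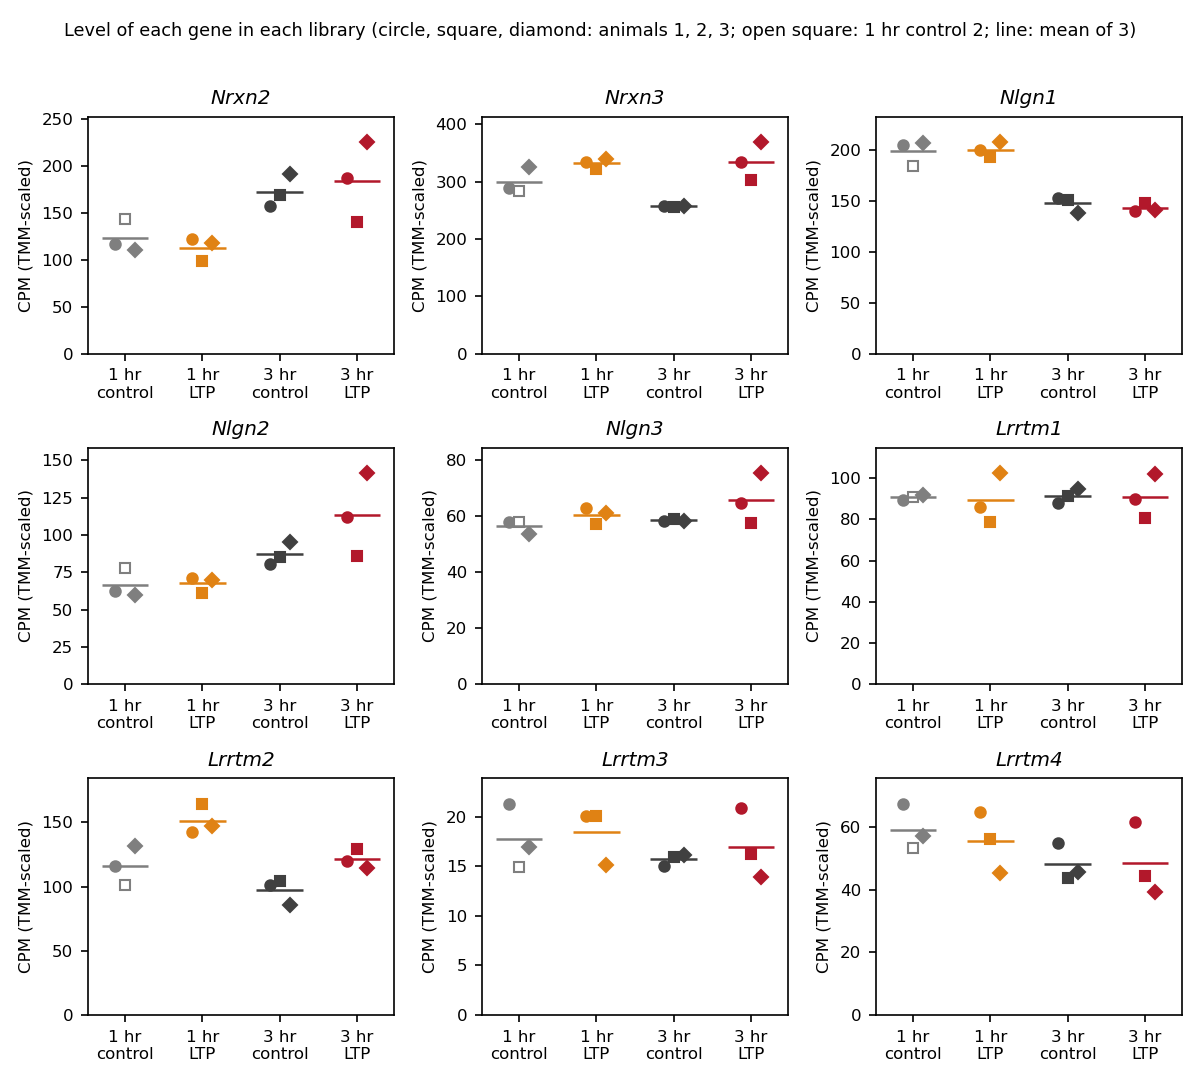
Level of each of the 9 genes in CPM (vertical axes, from 0) in each of 12 libraries, with the group on the horizontal axis, symbols for animals 1 to 3 and a line at the mean of 3. Nrxn3 and Lrrtm2 are higher in every 3 hr LTP library than in every 3 hr control library, and the open square, 1 hr control 2, was left out of the tests.

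The genes differed in their level per exonic length. Averaged over the 12 libraries, Lrrtm1 stood highest at 29.84 ± 2.34 RPKM (SD, n = 12), followed by Nrxn3 at 24.26 ± 2.96 and Lrrtm2 at 20.18 ± 3.74. Nlgn2 (14.45 ± 4.10), Nlgn1 (12.84 ± 2.18) and Nrxn2 (10.73 ± 2.79) came next, and Lrrtm4 (8.592 ± 1.48), Nlgn3 (6.508 ± 0.603) and Lrrtm3 (4.048 ± 0.616) were lowest. Each neighbouring pair in that order had overlapping ranges except the last: Nlgn3 did not fall below 5.769 RPKM in any library and Lrrtm3 did not exceed 5.012. The mean pools groups whose levels differ, and in the 1 hr controls used for the tests Nlgn1 (15.34 RPKM) was above Nlgn2 (10.55) and Lrrtm4 (10.13) above Nrxn2 (8.203). The order also depends on the length used. Per length of the longest annotated transcript in place of merged exons, Nrxn3 stood highest at 38.6 RPKM, Nrxn2 moved up to 22.23 and Lrrtm4 to 11.91.

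The genes also differ widely in size, on the GRCm38 assembly with GENCODE M21. Nrxn3 spans 1612 kb (chr12:88722876-90334935, plus strand), Nlgn1 906.2 kb (chr3:25426215-26332460, minus strand) and Lrrtm4 791.3 kb (chr6:80018877-80810143, plus strand). Nrxn2 (chr19:6418731-6544169, plus strand) covers 125.4 kb and Lrrtm3 (chr10:63928472-64090277, minus strand) 161.8 kb. Nlgn3 (chrX:101299168-101325963, plus strand), Lrrtm1 (chr6:77242689-77257791, plus strand), Nlgn2 (chr11:69823122-69837784, minus strand) and Lrrtm2 (chr18:35209003-35215024, minus strand) are compact, at 26.8, 15.1, 14.66 and 6.022 kb. The first 3 Lrrtm genes lie inside alpha-catenin genes on the opposite strand: Lrrtm1 inside Ctnna2, Lrrtm2 inside Ctnna1 and Lrrtm3 inside Ctnna3. These hosts, which encode links between cadherins and actin, were not called for LTP, with log2 fold changes of -0.032 (adjusted p = 0.826) for Ctnna1, -0.0175 (adjusted p = 0.926) for Ctnna2 and 0.17 (adjusted p = 0.567) for Ctnna3 at 3 hr.

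Whether strand was used in counting is not given in the sources used here, so reads in exons shared with genes of the opposite strand may be uncertain. Nlgn3 shares 41.2% of its exonic bases with Gm21986, which itself had 7 to 28 counts per library. Gm21986 lies on the same strand, so counting by strand would not tell these reads apart. This bears on the level and family share of Nlgn3. Lrrtm4 shares 25.1% with the antisense gene Gm4409, which had 0 to 5. For Nlgn1 the shared part was 9.16% (A830092H15Rik, 75 to 127 counts), for Nrxn2 6.44%, for Nrxn3 3.48% and for Lrrtm2 1.58%. Nlgn2, Lrrtm1 and Lrrtm3 shared none.

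Start regions from RefSeq (GRCm38.p6) were found for 6 members: Nrxn3 with 3 windows, Nlgn1 and Lrrtm4 with 2 each, and Nlgn2, Lrrtm1 and Lrrtm3 with 1. Each window runs from 250 bases before a start to 50 after it. Nrxn3, Nlgn1 and Nlgn2 are shown, because Nrxn3 was called for LTP and the neuroligins moved in opposite directions between controls. Printed are the 30 bases just before each start, 5′ to 3′, with CG pairs in capitals.

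Nrxn3, chr12:88794474-88794503, plus strand: tcttctcctcttctctcccttcttcaacag
Nrxn3, chr12:88953360-88953389, plus strand: gagaagagttgcaaaatcaCGaacaacact
Nrxn3, chr12:89812453-89812482, plus strand: cacttcacctgtgcctccccagttgCGCGc
Nlgn1, chr3:26331910-26331939, minus strand: gcactttgcaaatCGcCGgttttgCGcacc
Nlgn1, chr3:26153987-26154016, minus strand: actaggggtacctttgtatcatttttcatt
Nlgn2, chr11:69837785-69837814, minus strand: ggcagggggCGggggaggCGgcCGCGCGgt

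The Nlgn2 start lies in 90% GC with 5 CG pairs, while the 2 Nlgn1 starts have 56.7% and 33.3% GC and 3 and 0 pairs. Nrxn3 has 46.7%, 40% and 66.7% GC with 0, 1 and 2 pairs, and the median over 32851 annotated starts is 56.7% GC and 1 pair. The gene counts add up transcripts from all starts of Nrxn3, so which of them the 3 hr rise came from is not given by these data. The sequence before the first Nrxn3 start is a run of pyrimidines ending in cag, the form of a splice acceptor, so this annotated start may be an internal exon edge.

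Forskolin raises cAMP, and CREB, the factor that responds to it, binds the palindrome TGACGTCA or its half-site TGACG. Both strands of the 10 windows, none of them of Lrrtm2, were searched for these letters. The palindrome was in 0 of the 10, beside 1.79% of all start windows of the same length. The half-site was in 1, that of Nlgn2, beside 20.8% of all windows, and it is counted within the palindrome as well. It begins 1 base before the start and is in capitals within this stretch of 29 bases, chr11:69837769-69837797, minus strand: gcggccgcgcggTGACGcgcggggctgct. A match of letters is a description and not evidence of binding.

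Nrxn3 was the most abundant of the 9 genes in CPM. At 3 hr its controls lay close together, at 257.7, 255.3 and 257.4 CPM in animals 1, 2 and 3, and its LTP libraries at 333.7, 302.2 and 368.5 CPM. The groups did not overlap, and LTP exceeded the control of the same animal by 0.37, 0.24 and 0.52 on the log2 scale. The log2 fold change was 0.40 ± 0.0759 (SE; 95% interval 0.22 to 0.57; adjusted p = 0.0284). Groups apart are common here, since 27% of all genes tested at 3 hr had them. At 1 hr, Nrxn3 stood at 289.2 and 326 CPM in controls 1 and 3 (283.9 in the library set aside) and at 333.8, 322.7 and 339.4 CPM with LTP. These groups overlapped, with a log2 fold change of 0.12 ± 0.0699 (adjusted p = 0.852).

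The 3 hr call of Nrxn3 depended on which library was left out. It was kept without 3 hr LTP 2 (adjusted p = 0.00187) and without 3 hr LTP 3 (adjusted p = 0.0304). It was lost when any 3 hr control was left out (adjusted p = 0.133, 0.165 and 0.106 without control 1, 2 and 3) and without 3 hr LTP 1 (adjusted p = 0.125), although the log2 fold change stayed between 0.31 and 0.47 whichever of the 6 libraries was omitted. With GC and length offsets it was 0.272 (adjusted p = 0.0247), just over the fold minimum of 0.263, and the call was kept.

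Nrxn2, the other neurexin gene measured here, showed no call for LTP. At 1 hr it had 116.8 and 109.8 CPM in controls 1 and 3, 143.6 CPM in control 2, and 122.3, 98.9 and 117.7 CPM with LTP. At 3 hr the controls had 156.7, 169.2 and 191.3 CPM and the LTP libraries 187, 140.1 and 225. The groups overlapped at both times. In animals 1 and 3 the 3 hr LTP library was above its own control, by 0.26 and 0.23 on the log2 scale, and in animal 2 it was below, at -0.27. The log2 fold changes were 0.0064 ± 0.086 (adjusted p = 0.997) at 1 hr and 0.11 ± 0.153 (adjusted p = 0.741) at 3 hr, where the 95% interval ran from -0.24 to 0.45.

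Among the neuroligins, Nlgn1, the member concentrated at excitatory synapses, hardly differed between LTP and control. The 1 hr values were 204.9 and 207 CPM in controls 1 and 3, 184.5 CPM in control 2, and 199.5, 193.1 and 207.4 CPM with LTP. The 3 hr values were 153.1, 151 and 138 CPM in controls and 140.2, 147.8 and 140.6 CPM with LTP. All 6 libraries at 3 hr were below all 6 at 1 hr. The log2 fold change for LTP was -0.032 ± 0.0646 at 1 hr (adjusted p = 0.976) and -0.031 ± 0.0599 at 3 hr (adjusted p = 0.816; 95% interval -0.17 to 0.10). With offsets for GC content and exonic length the 3 hr value was -0.19 (adjusted p = 0.0393), which is less than the fold minimum.

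Nlgn2, the neuroligin of inhibitory synapses, had the second largest mean difference of the 9 genes at 3 hr without passing the test. At 1 hr it was at 62.5 and 59.52 CPM in controls 1 and 3, 77.84 CPM in control 2, and 71.45, 61.2 and 70.1 CPM with LTP. The 3 hr controls had 80.64, 85.25 and 95.08 CPM and the LTP libraries 111.8, 86.08 and 141.5. LTP libraries 1 and 3 were above every control, while LTP library 2 lay within the control range. Within animals the 3 hr log2 ratios were 0.47, 0.014 and 0.57. The log2 fold change was 0.16 ± 0.0814 at 1 hr (adjusted p = 0.807) and 0.39 ± 0.156 at 3 hr (95% interval 0.037 to 0.75; adjusted p = 0.204).

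Nlgn2 at 3 hr passed the test when animal entered the fit as a block (0.37, adjusted p = 0.0695), with offsets for GC content and exonic length (0.42, adjusted p = 0.0161), and without 3 hr LTP 2 (0.56, adjusted p = 0.00992), and over all alternatives the adjusted p ran from 0.00417 to 0.473. Without 3 hr LTP 3 its log2 fold change was 0.19 (adjusted p = 0.365). Nlgn3 also passed without 3 hr LTP 2, at 0.28 (adjusted p = 0.0444), and without 3 hr LTP 3 it was at 0.067 (adjusted p = 0.626).

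Nlgn3, found at both kinds of synapse, was the most even neuroligin. Its controls had 57.9 and 53.48 CPM at 1 hr (57.86 in control 2) and 58.46, 58.84 and 58.47 CPM at 3 hr. Its LTP libraries had 63.06, 57.08 and 61.15 CPM at 1 hr and 64.86, 57.46 and 75.44 CPM at 3 hr. LTP and control overlapped at each time. The log2 fold change was 0.13 ± 0.0774 at 1 hr (adjusted p = 0.867) and 0.18 ± 0.0937 at 3 hr (adjusted p = 0.314).

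Lrrtm2 was the member for which LTP and control libraries stood apart at both times. Its protein is a postsynaptic neurexin ligand of excitatory synapses. At 1 hr the controls had 116 and 131.3 CPM (101.1 in the library set aside) and the LTP libraries 142.6, 164.6 and 147.1. At 3 hr the controls had 101.3, 104.5 and 86.01 CPM and the LTP libraries 119.8, 129.5 and 114.5. LTP was above control in every animal, by 0.30, 0.70 (against control 2, the library set aside) and 0.16 on the log2 scale at 1 hr and by 0.24, 0.31 and 0.41 at 3 hr. At 1 hr, 22.6% of all genes had groups that did not overlap.

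For Lrrtm2 the log2 fold change was 0.30 ± 0.0815 at 1 hr (95% interval 0.13 to 0.48; adjusted p = 0.201) and 0.33 ± 0.0831 at 3 hr (95% interval 0.14 to 0.52; adjusted p = 0.0653), so only the second was called. At 1 hr it was called by DESeq2 (adjusted p = 0.0634), with control 2 included (0.39, adjusted p = 0.0986, but 0.299 once animal was added as a block), with no filter on low counts (adjusted p = 0.0107) and without 1 hr LTP 3 (adjusted p = 0.0784), and not by limma-voom. At 3 hr the call was lost without any of the controls (adjusted p = 0.174, 0.167 and 0.159 without control 1, 2 and 3), without 3 hr LTP 1 (adjusted p = 0.196), and with GC and length offsets, where the value of 0.263 did not exceed the fold minimum (adjusted p = 0.0236).

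Lrrtm1, a close relative of Lrrtm2 that also organizes excitatory synapses, was level. Its control libraries ranged from 88.02 to 94.57 CPM over both times, control 2 at 1 hr included. The LTP libraries had 86.19, 78.89 and 102.5 CPM at 1 hr and 89.9, 80.47 and 101.8 CPM at 3 hr, so that at each time animal 2 was below and animal 3 above the range of all controls, and animal 1 was also below it at 1 hr. The log2 fold change was -0.014 ± 0.093 at 1 hr (adjusted p = 0.997) and 0.0027 ± 0.0865 at 3 hr (95% interval -0.19 to 0.20; adjusted p = 0.99).

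Lrrtm3 and Lrrtm4, the less abundant Lrrtm genes, varied more between animals than with LTP. Lrrtm3 had 21.31 and 16.91 CPM in 1 hr controls 1 and 3 (14.91 in control 2), 20.04, 20.09 and 15.16 CPM with LTP at 1 hr, 15.03, 15.94 and 16.15 CPM in 3 hr controls, and 20.86, 16.2 and 13.9 CPM with LTP at 3 hr. Lrrtm4, whose protein also binds heparan sulfate proteoglycans and is prominent on dentate granule cells, had 67.51 and 57.03 CPM in 1 hr controls (53.21 in control 2), 64.74, 56.27 and 45.4 CPM with LTP at 1 hr, 54.87, 43.75 and 45.81 CPM in 3 hr controls, and 61.52, 44.41 and 39.3 CPM with LTP at 3 hr. Control and LTP overlapped throughout. Neither gene was called for LTP: the log2 fold changes were -0.041 and 0.13 for Lrrtm3 and -0.16 and 0.023 for Lrrtm4 at 1 hr and 3 hr, with adjusted p from 0.642 to 0.99.

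**Figure D2:**
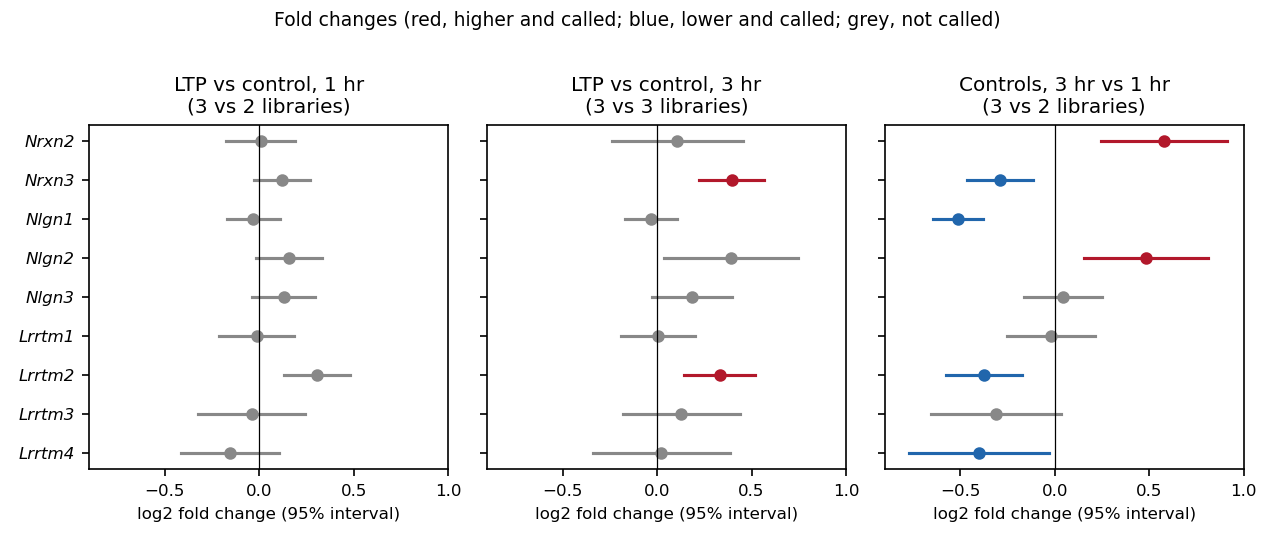
Log2 fold change (horizontal axes, point) with its 95% interval (line) for each of the 9 genes in 3 comparisons: LTP against control at 1 hr, the same at 3 hr, and 3 hr against 1 hr controls. At 1 hr no interval is coloured as called, at 3 hr Nrxn3 and Lrrtm2 are called higher, and between controls 2 genes are called higher and 4 lower.

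To ask whether the LTP effect itself changed from 1 hr to 3 hr, the difference of the effects was tested in a model of the 4 groups. By edgeR, 0 of the 9 genes were called, as with DESeq2 and limma-voom, beside 0.0592% of all genes (0.0269% higher and 0.0323% lower), which are 5 and 6 genes, or 19 and 10 with the GC and length offsets. At an unadjusted p under 0.05 there was 1, Nrxn3, whose effect was higher at 3 hr by 0.28 ± 0.111 on the log2 scale (adjusted p = 0.66). For Lrrtm2 the difference was 0.036 ± 0.126 (95% interval -0.23 to 0.31; adjusted p = 0.996), and for Nlgn2 it was 0.24 ± 0.202 (95% interval -0.19 to 0.67; adjusted p = 0.924). Thus the call of Nrxn3 and Lrrtm2 at 3 hr and its lack at 1 hr is not by itself a difference between the times.

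The control slices of the 2 time points differed far more than LTP and control slices did. Of all genes, 32.8% were called (16.1% higher at 3 hr and 16.8% lower), and 60.7% had groups that did not overlap. Of the 9 genes, 6 were called and 8 had groups that did not overlap, Lrrtm1 being the exception. Time after treatment cannot be told apart here from the animals, which were taken to differ between the time points.

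Between controls, 2 members were higher at 3 hr. Nrxn2 was at 113.3 ± 5 CPM (SD, n = 2) at 1 hr and 172.4 ± 17.5 (n = 3) at 3 hr, a log2 fold change of 0.58 ± 0.155 (SE; adjusted p = 0.0126). Nlgn2 was at 61.01 ± 2.1 and 86.99 ± 7.37 CPM, a log2 fold change of 0.48 ± 0.153 (adjusted p = 0.0282).

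The 4 members that were lower at 3 hr came from all the families. Nlgn1 was at 205.9 ± 1.44 CPM (SD, n = 2) at 1 hr and 147.4 ± 8.18 (n = 3) at 3 hr, and its log2 fold change of -0.51 ± 0.0626 (SE; adjusted p = 0.000118) was the most firmly determined of the 9. Nrxn3 went from 307.6 ± 26 to 256.8 ± 1.28 CPM (-0.29 ± 0.0825, adjusted p = 0.0171), Lrrtm2 from 123.6 ± 10.8 to 97.28 ± 9.88 CPM (-0.38 ± 0.0934, adjusted p = 0.00845) and Lrrtm4 from 62.27 ± 7.4 to 48.14 ± 5.91 CPM (-0.40 ± 0.173, adjusted p = 0.0941). Lrrtm3 had a log2 fold change of -0.31 ± 0.16 (adjusted p = 0.157), Nlgn3 of 0.045 ± 0.0964 (adjusted p = 0.762) and Lrrtm1 of -0.019 ± 0.108 (adjusted p = 0.912).

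The differences between controls were also laid beside the base composition of the transcripts. The higher members, Nrxn2 and Nlgn2, have longest transcripts of 62.43% and 60.74% GC, and the lower ones have 47.53% (Nrxn3), 38.91% (Nlgn1), 38.43% (Lrrtm2) and 38.35% (Lrrtm4). When GC content and exonic length entered as offsets, Nrxn2 was at 0.061 (adjusted p = 0.455) and Nlgn2 at 0.040 (adjusted p = 0.744) on the log2 scale, Lrrtm2 at -0.15 (adjusted p = 0.095), Lrrtm4 at -0.18 (adjusted p = 0.44) and Nrxn3 at -0.24 (adjusted p = 0.0266), all short of the call. Nlgn1 was still called, at -0.28 (adjusted p = 0.00575), and it kept its call under each of the 19 alternatives, with values from -0.52 to -0.28. The offsets take GC content and length together, so the part of either alone was not tested.

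**Figure D3:**
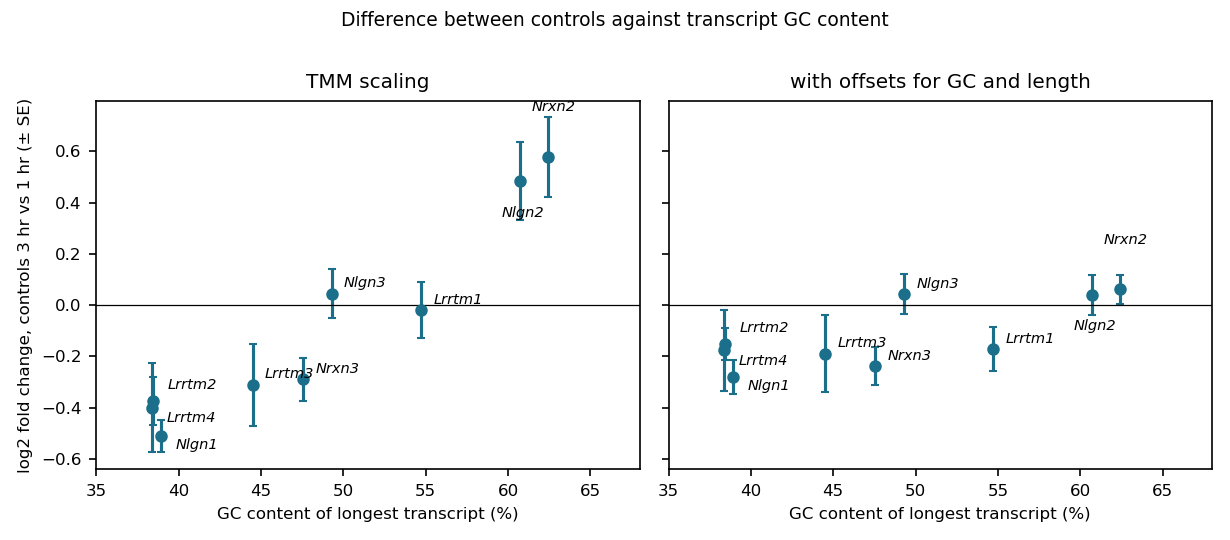
Log2 fold change of 3 hr against 1 hr controls (vertical axis, point ± SE) against the GC content of the longest transcript (horizontal axis, %) for the 9 genes, with TMM scaling (left) and with added offsets for GC content and exonic length (right). With TMM scaling Nrxn2 and Nlgn2 lie at 0.58 and 0.48, and with the offsets at 0.061 and 0.040.

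Single libraries also bore on the control calls. Without 1 hr control 3, which leaves 1 control at that time and assumes that it varies like the other groups, 2 of the 9 genes were called in place of 6: Nrxn3 (adjusted p = 0.287), Nlgn2 (adjusted p = 0.13), Lrrtm2 (adjusted p = 0.171) and Lrrtm4 (adjusted p = 0.161) were not. With 1 hr control 2 included, 3 were called, and Nrxn3, Lrrtm2 and Lrrtm4 were at -0.22, -0.26 and -0.30. DESeq2 and limma-voom called 6 genes, and the size factors of DESeq2 in edgeR 5, without Lrrtm4 (adjusted p = 0.109). Total counts and the filter of at least 10 counts in every library each gave 4, without Lrrtm4 (adjusted p = 0.144 and 0.122) and without Nrxn3, whose values of -0.25 and -0.26 were under the fold minimum. With no filter beyond 1 count there were 7, Lrrtm3 being added (-0.29, adjusted p = 0.0944). The call of Nrxn3 was lost without 3 hr control 2 as well (-0.262, adjusted p = 0.0608), and that of Lrrtm4 without either 1 hr control, 1 hr LTP 1 or 2, or 3 hr control 2 or 3 (adjusted p from 0.106 to 0.496). Markers of cell types moved between the controls too, 15 of 35 being called: the summed level of 4 microglial markers was 138.8 to 152.4 CPM in the 1 hr controls and 96.71 to 109 CPM in the 3 hr controls, and 3 of those 4 were called lower. Of the neuronal and excitatory markers, Snap25 (-0.51), Syt1 (-0.30), Map2 (-0.35) and Neurod6 (-1.10) were called lower, while Rbfox3, Slc17a7 and Camk2a were not called, at 0.072, 0.082 and 0.099. Gad2 (-0.41), Pecam1 (-0.37) and Flt1 (-0.32) completed the 10 lower calls. The 5 higher calls were Bok (0.74), Cspg4 (0.68), Slc32a1 (0.55), Mbp (0.52) and Fibcd1 (0.40). None of these markers was at 0 in any library, and their part in the differences was not tested. For LTP against control, 0 of the 35 markers were called at either time by edgeR or limma-voom, and DESeq2 called 1 lower at 3 hr. The animal block gave 1 lower at 3 hr, the GC and length offsets 1 lower at 1 hr and 2 lower at 3 hr, and both together 2 lower at each time. At an unadjusted p under 0.05 by edgeR there were 4 higher and 3 lower at 1 hr and 2 higher and 2 lower at 3 hr. The summed inhibitory neuron markers (Gad1, Gad2 and Slc32a1) were at 359.6 to 394.1 CPM in 3 hr controls and 398.2 to 423.9 CPM with LTP at 3 hr, though within the sum Gad1 and Gad2 had log2 fold changes of 0.15 and 0.16 and Slc32a1 of -0.11, none of them called. Their part in the rises of Nrxn3 and Lrrtm2 was not tested.

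The 3 hr controls enter both the LTP comparison at 3 hr and the comparison of controls, so the values of the 2 are not independent. Side by side, Nrxn3 had 0.40 for LTP at 3 hr and -0.29 between controls, Lrrtm2 0.33 and -0.38, and Nlgn2 0.39 and 0.48. The mean level of Nrxn3 in LTP slices was 332 ± 8.53 CPM (SD, n = 3) at 1 hr and 334.8 ± 33.2 (n = 3) at 3 hr. For Lrrtm2 it was 151.4 ± 11.6 and 121.2 ± 7.58 CPM.

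The share of each gene in the RPKM of its family was taken with TMM scaling and without the GC and length offsets. Nrxn3 held 72.7% ± 4.1 (SD, n = 3, control 2 included) of the RPKM of the 2 neurexin genes in 1 hr controls, 76.3% ± 1.6 with LTP at 1 hr, 62.1% ± 2.4 in 3 hr controls and 66.9% ± 3.1 with LTP at 3 hr. Nlgn1 was the leading neuroligin in 1 hr controls, with 45.8% ± 4.2 against 35.4% ± 4.1 for Nlgn2. In 3 hr controls Nlgn2 led with 46.5% ± 3 against 34% ± 2.6, and with LTP at 3 hr the shares were 51.9% ± 5.2 and 29% ± 5. Nlgn3 kept at least 18.3% and at most 20% in every library.

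The summed neuroligin level was 32.41 ± 0.983 RPKM in 1 hr controls, 33.1 ± 1.71 with LTP at 1 hr, 32.34 ± 0.68 in 3 hr controls and 37.31 ± 5.51 with LTP at 3 hr (SD, n = 3). In the Lrrtm family, Lrrtm1 held 47.6% ± 2.8 and Lrrtm2 30.5% ± 2.5 in 1 hr controls, and 43.2% ± 5.1 and 37.1% ± 3.1 with LTP. At 3 hr they held 52.2% ± 2.6 and 27.9% ± 2.4 in controls and 48.3% ± 4.9 and 32.6% ± 3.3 with LTP. At both times the share of Lrrtm2 was higher in each LTP library than in each control of that time. Lrrtm3 and Lrrtm4 together made up the rest, with means of 6.39% to 6.59% and 12.7% to 15.3%. These shares are descriptions without a test, and they were not recomputed with the offsets. With those, Nlgn2 and Nlgn1 differed less between controls (0.040 and -0.28 on the log2 scale, in place of 0.48 and -0.51), so the change of the leading neuroligin is given for TMM scaling alone, and with LTP at 3 hr they were at 0.42 and -0.19.

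**Figure D4:**
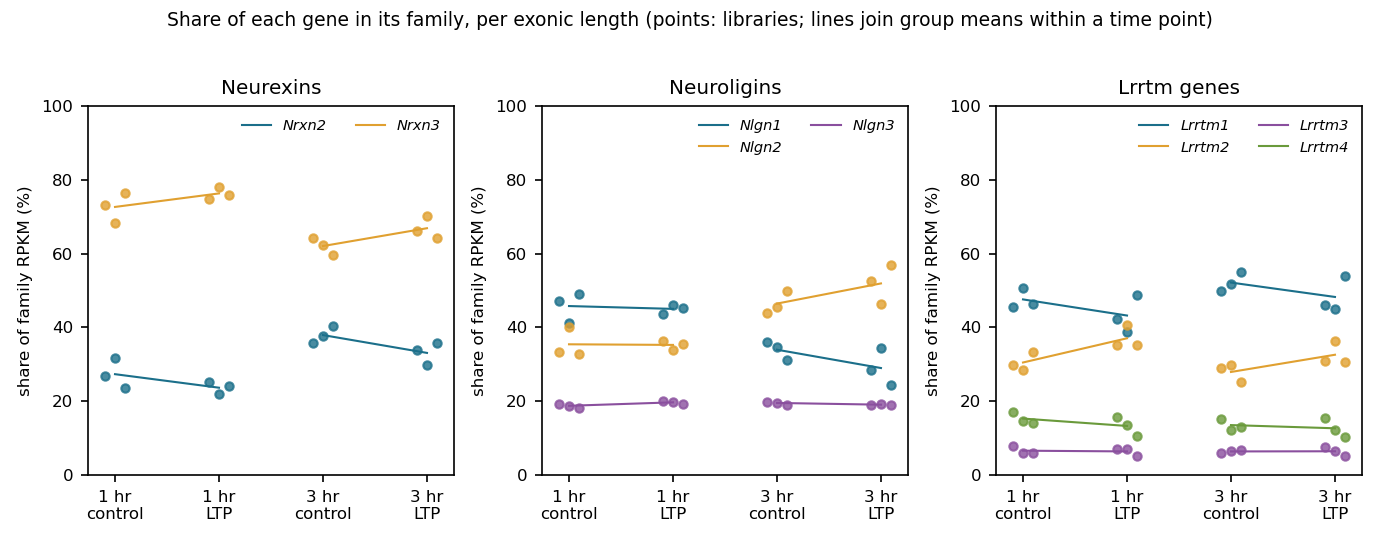
Share of each gene in the summed RPKM of its family (vertical axes, %) in each of 12 libraries (points), by group, with lines joining the control and LTP means within a time point. With TMM scaling Nlgn1 leads the neuroligins in group mean at 1 hr and Nlgn2 at 3 hr, while Nlgn3 stays within 18.3% and 20%.

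The wider adhesion and scaffold machinery was followed in 9 lists with 100 genes in all, of which 99 could be tested. At 1 hr, 0 of the 99 were called by edgeR, DESeq2 or limma-voom. An unadjusted p under 0.05 was found for 4 of them: C1ql3, a secreted ligand (-0.23, adjusted p = 0.434), Shank1 (0.25, adjusted p = 0.267), Mdga2 (0.22, adjusted p = 0.696) and Nova2 (0.29, adjusted p = 0.451). In the remaining lists the smallest p at 1 hr was that of Lin7b (-0.14), Slitrk6 (0.39), Tenm3 (0.11), Cadm2 (0.083) and Ctnna2 (-0.079), with adjusted p from 0.832 to 0.923. At 3 hr, 11 of the 99 rose and 0 fell, 11.1% beside the background of 6.6% (5.07% higher and 1.53% lower). With GC and length offsets 6 of the 99 were called higher and 0 lower, and 5 of these 11 kept the call. Calls over all genes went up with the offsets, as given above, so 11.1% beside 6.6% is for the main fit alone. In the test of the changed LTP effect, edgeR and limma-voom called 0 of the 99, though 12 higher and 1 lower had an unadjusted p under 0.05, and DESeq2 called 1, Ntrk3 (0.42 ± 0.108, adjusted p = 0.0294). Among the genes with the smallest p of their list in that test were Ntrk3 (0.44, adjusted p = 0.252), Tenm2 (0.39, adjusted p = 0.528), Dlg2 (0.22, adjusted p = 0.592), Mdga1 (0.58, adjusted p = 0.647), Cadm2 (0.25, adjusted p = 0.685), Clstn2 (0.32, adjusted p = 0.69) and Nova2 (0.41, adjusted p = 0.735), and those of the other lists, Apba1 and Ctnna2, had 0.16 and 0.069. Between controls, 15 were higher and 25 lower (40.4% beside 32.8%), and with the offsets 6 were higher and 20 lower, of which 14 were among the first 40. Over all genes, 4653 to 6347 were called under the alternatives that left no further library out, the offsets included, in place of 6102. Thus 40.4% beside 32.8% is for the main fit alone.

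Partners inside the postsynaptic cell accounted for 3 of the 11 rises at 3 hr, of 15 genes in that list. Shank1, a scaffold of the postsynaptic density, was at 158.1 CPM in 3 hr controls and 251.9 CPM with LTP (log2 fold change 0.68 ± 0.161, adjusted p = 0.0564). Dlg2, which encodes the scaffold PSD-93 that binds neuroligins, was at 279 and 335.6 CPM (0.28 ± 0.0525, adjusted p = 0.027), and Magi2, another neuroligin-binding scaffold, at 145.1 and 177.6 CPM (0.30 ± 0.0793, adjusted p = 0.0749). The intracellular partners of neurexins showed 0 calls among 9, the smallest p being that of Lin7b (-0.19, adjusted p = 0.211).

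Both Mdga genes rose at 3 hr. Their proteins bind neuroligins on the same membrane and block their contact with neurexins. Mdga1 went from 61.45 to 87.56 CPM (0.52 ± 0.151, adjusted p = 0.0974) and Mdga2 from 40.2 to 50.5 CPM (0.34 ± 0.0831, adjusted p = 0.0599). By limma-voom Mdga1 was not called (adjusted p = 0.111), and without 3 hr LTP 3 it was at 0.30 (adjusted p = 0.0877). Mdga2 was not called with the GC and length offsets (0.16, adjusted p = 0.217). They were the 2 called among 7 regulators and shedding proteases of neuroligins. Of 6 regulators of neurexin splicing, 2 rose: Nova2 went from 26.76 to 42.69 CPM (0.69 ± 0.131, adjusted p = 0.0281) and Khdrbs2, which encodes the splicing factor SLM1, from 14.8 to 19.65 CPM (0.42 ± 0.0874, adjusted p = 0.0365).

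Other adhesion systems added 4 calls at 3 hr. Ntrk3, the TrkC receptor and a ligand of presynaptic receptor phosphatases, rose by 0.47 ± 0.0683 (adjusted p = 0.0108), 1 of 19 in its list. Tenm2, a teneurin that pairs with latrophilins, rose by 0.47 ± 0.0955 (adjusted p = 0.0353) and Flrt2 by 0.28 ± 0.0603 (adjusted p = 0.0442), 2 of 10. Cadm2, a SynCAM adhesion molecule, rose by 0.32 ± 0.0731 (adjusted p = 0.0491), 1 of 14. Among the 19 tested extracellular ligands and receptors of neurexins, 0 were called, with 0.26 (adjusted p = 0.076) for Clstn2 just under the fold minimum.

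**Figure D5:**
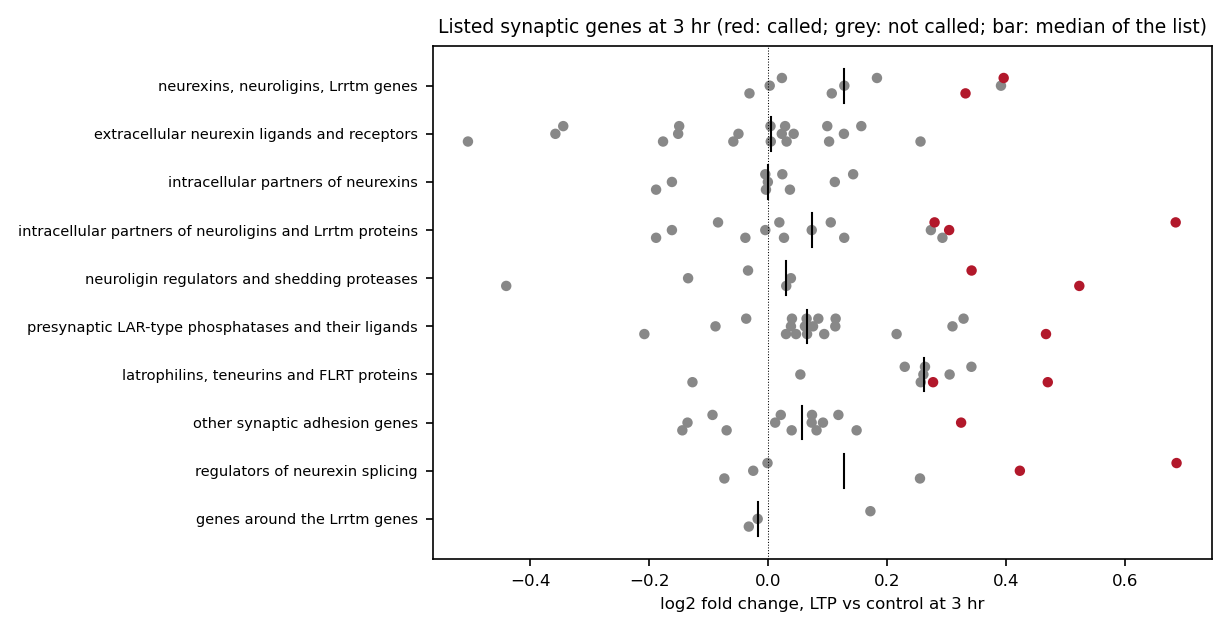
Log2 fold change of LTP against control at 3 hr (horizontal axis) for the 9 genes and for each of 9 lists of synaptic genes (rows), with called genes in red, others in grey and a bar at each median. All called genes lie to the right of 0, and the median of the latrophilin, teneurin and FLRT list lies at 0.26.

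Like the member calls, these depended on which library was left out. Of the 11 listed genes called at 3 hr, 2 (Ntrk3 and Cadm2), 1 (Ntrk3) and 2 (Ntrk3 and Tenm2) kept the call without 3 hr control 1, 2 or 3, and 1 (Ntrk3) without 3 hr LTP 1. Without 3 hr LTP 2 all 11 kept it and 23 were called in all, and without 3 hr LTP 3 there were 7 that kept it. Ntrk3 was thus called in each of these 6 fits, but not with the GC and length offsets, under which Ntrk3 was at 0.22, Dlg2 at 0.12, Cadm2 at 0.19, Flrt2 at 0.20 and Magi2 at 0.20 on the log2 scale. With these offsets Khdrbs2, Mdga1, Nova2, Shank1 and Tenm2 remained called.

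Between controls, listed genes moved in both directions. Among neurexin partners in the terminal, Lin7a (-0.53), Epb41l2 (-0.35) and Lin7c (-0.32) were lower, and among postsynaptic partners, a list that also holds the Lin7 genes, Shank3 (0.53) and Shank1 (0.49) were higher. Hspg2, the proteoglycan perlecan (1.07, at 1.841 CPM in 1 hr controls and 3.907 in 3 hr controls), Lhfpl4, which holds neuroligin 2 with GABA receptors (0.80), and Mmp9, a protease that sheds neuroligin 1 (0.70, at 0.7976 and 1.327 CPM), were higher. Nxph2 (-0.79), which encodes a neurexophilin, Car10 (-0.33), Slitrk6 (-1.25), Il1rapl2 (-0.75), Flrt3 (-0.53), Flrt2 (-0.34), Lrrc4c (-0.49), Ctnna2 (-0.29) and the splicing regulators Ptbp2 (-0.56), Nova1 (-0.34) and Khdrbs2 (-0.29) were lower, while Gpc4 (0.39), Lrfn3 (0.52), Flrt1 (0.40), Cadm4 (0.49) and Ntng2 (0.83) were higher.

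Across the 12 libraries, some of the 9 genes went up and down together. The highest Pearson correlation of log2 CPM was that of Nrxn2 with Nlgn2 (0.945), followed by Lrrtm3 with Lrrtm4 (0.811) and Nlgn2 with Nlgn3 (0.799), and the lowest were those of Nrxn2 with Nlgn1 (-0.889) and Nlgn1 with Nlgn2 (-0.852). Nrxn3 was closest to Lrrtm2 (0.696) among the other members. The libraries share time points and animals, so these values only describe the pattern.

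Of the 14184 genes averaging 1 CPM or more, the one most like each of the following members over the same 12 libraries was Synpo for Nrxn2 (0.992), Pde4d for Nrxn3 (0.957), Camsap2 for Nlgn1 (0.993), Wipf2 for Nlgn3 (0.961), Teddm2 for Lrrtm1 (0.936), Rb1 for Lrrtm2 (0.958), Ankrd45 for Lrrtm3 (0.887) and Rasgrf2 for Lrrtm4 (0.915).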

How the data were processed

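Total RNA was sequenced by the authors with a stranded, ribosomal RNA-depleted kit, aligned with STAR to GRCm38/mm10 and counted per gene in R. The deposited values are raw counts, 1 table per time point, and the submitters' processing notes also name DESeq2. Strand use, annotation release and treatment of multiply aligned reads are not given in the sources used here. Of 41091 gene IDs, 40217 matched GENCODE M21, which gave symbols, lengths and GC content (of the longest transcript), and the 874 others were kept in the totals and in every fit without a symbol. No count column was left without a sample.

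Library totals were 37118382 to 50815001 counts, and 3 counts corresponded to 0.059 to 0.0808 CPM, a limit that covers counting error only. No replicates were near copies, with a chi-square per degree of freedom of 9.49 to 85.6.

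Genes kept by filterByExpr were TMM-scaled and tested in R 4.3.3 with edgeR 4.0.16 (quasi-likelihood F test, Benjamini-Hochberg adjustment over every gene kept). Each time point was fitted alone, the study's design, without 1 hr control 2. The changed LTP effect (called without a fold minimum) and the controls were tested in 1 model of 4 groups with 11 libraries. CPM used TMM factors over the 12 libraries, and log2 ratios per animal a pseudocount of 0.1 CPM. GC and length offsets came from smoothing splines with 5 degrees of freedom. The pipeline was tested on simulated data. Alternatives used DESeq2 1.42.0, limma-voom 3.58.1, other scalings and filters, the offsets, an animal block, and each library left out in turn.

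The labels and the study's methods pair LTP and control libraries by animal within a time point. Across genes, deviations of a pair from their group means had correlations of 0.003, -0.281 and 0.096 (1 hr, by animal) or 0.101, 0.011 and 0.328 (3 hr, by animal). The members, lists and tests were chosen with earlier results of these data known. Named were all 9 members and, per list and comparison, up to 3 called genes with the largest change, or the 1 with the smallest p where none was called. Markers and overlapping genes were named for their role. The gene most like Nlgn2 is not reported here.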

Additional observations from a re-analysis of the deposited data

Results flagged for a closer look

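In 1 hr control 2, the library kept out of the comparisons, Nrxn2 was at 143.6 CPM and Nlgn2 at 77.84 CPM, above both other 1 hr controls (109.8 and 116.8 CPM for Nrxn2, 59.52 and 62.5 CPM for Nlgn2) and below the 3 hr controls (156.7 to 191.3 and 80.64 to 95.08 CPM). Nrxn3 (283.9 CPM) and Nlgn1 (184.5 CPM) in that library also lay between the ranges of the 1 hr and 3 hr controls. The values are those of 1 library and carry no test.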

How the results depend on the processing

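In the LTP comparison at 1 hr, DESeq2, no filter beyond 1 count and the inclusion of 1 hr control 2 each gave 1 called member (Lrrtm2) in place of 0, and leaving out libraries gave 0 to 1. At 3 hr, leaving out libraries gave 0 to 4 called members in place of 2. Between controls, the GC and length offsets gave 1 and the inclusion of 1 hr control 2 gave 3 in place of 6, and leaving out libraries gave 2 to 6. Over all genes, the 1 hr calls were 347 with no filter, 311 with the replicate block and offsets and 69 to 344 with libraries left out, in place of 140. The 3 hr calls were 1790 with block and offsets (1123 higher, 667 lower) and 228 to 2170 with libraries left out, in place of 1155. Calls for the changed LTP effect, 11 at first, were 80 by DESeq2, 102 with no filter, 29 with offsets, 26 with block and offsets, 7 with the block and 1 hr control 2 included, and 1 to 67 with libraries left out. RPKM per longest transcript was 38.6 for Nrxn3, 22.23 for Nrxn2 and 11.91 for Lrrtm4.

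The replicate block stands for the animal. At 1 hr, without control 2, the LTP effect of the block fit rests on the pairs of animals 1 and 3. With it, 0 members and 206 genes were called at 1 hr, and 3 members (Nlgn2 besides Nrxn3 and Lrrtm2) and 1662 genes at 3 hr; it changed no other member's call. No paired analysis was possible because the sources do not say that 1 hr and 3 hr slices share animals, for the comparison of controls. The block with 1 hr control 2 included was chosen after seeing the data.

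Changes of sign were seen only in values that were not called, and the cause was not tested. For LTP at 1 hr, Nrxn2 was -0.023 with offsets, -0.005 with block and offsets, -0.12 with 1 hr control 2 included, -0.115 with that and the block, and -0.003 in 1 model of the 4 groups. Lrrtm1 was 0.059 with the block and 0.03 with block and offsets, and with 1 hr control 2 included, without and with the block, Nlgn1 was 0.017 and 0.018 and Lrrtm3 0.068 and 0.069. For LTP at 3 hr, Lrrtm1 was -0.005 by limma-voom, -0.015 with total counts, -0.014 with no filter and -0.003 with the block, and Lrrtm4 was -0.05 with offsets and -0.068 with block and offsets.

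For the changed LTP effect, Nlgn1 was -0.001 by DESeq2 and by its size factors, -0.013 with total counts, -0.005 with no filter, -0.02 with at least 10 counts in every library, -0.1 with offsets, -0.014 with the block, -0.161 with both, and -0.054 with 1 hr control 2 included, with or without the block. Lrrtm1 was -0.004 with at least 10 counts and -0.055 with the block, Lrrtm2 -0.001 with offsets, -0.065 with 1 hr control 2 included and -0.067 with that and the block, and Nlgn3 -0.033 with block and offsets. Between controls, Lrrtm1 was 0.021 with total counts, 0.005 with no filter, 0.014 with at least 10 counts and 0.01 with 1 hr control 2 included.

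With libraries left out, values spanned -0.054 to 0.091 for Nrxn2, -0.124 to 0.063 for Lrrtm1 and -0.2 to 0.133 for Lrrtm3 at 1 hr, and -0.072 to 0.274 for Nrxn2, -0.097 to 0.087 for Lrrtm1, -0.05 to 0.242 for Lrrtm3 and -0.19 to 0.143 for Lrrtm4 at 3 hr. For the changed effect they spanned -0.08 to 0.251 for Nrxn2, -0.053 to 0.043 for Nlgn1, -0.063 to 0.132 for Nlgn3, -0.083 to 0.145 for Lrrtm1, -0.083 to 0.111 for Lrrtm2, -0.03 to 0.306 for Lrrtm3 and -0.043 to 0.32 for Lrrtm4, and between controls -0.025 to 0.037 for Lrrtm1.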
